A study of Drosophila melanogaster with 2 samples.

Results

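Inside 8 Drosophila melanogaster genes lay some of the strongest intragenic peaks of the B-H2-GFP chromatin immunoprecipitation (ChIP-seq). The genes are CG11050, Tlk, Lk6, CG9663, CG32772, norpA, sbb and for. They were selected on the pooled signal of a summit within the gene, by symbol in the Ensembl BDGP6 annotation, and are 8 of 13968 protein-coding genes. Every summit in their gene bodies or within 5 kb of them was counted, and those of the strict set are described one by one or in groups. Having a strong peak inside the gene is therefore how they were chosen and not a result, and no test is made on it. Whole embryos of mixed sex, aged 6 to 22 hours, came from a transgenic line that stably makes B-H2 with green fluorescent protein (GFP) at its C terminus. The series has this single group, with 2 biological replicates numbered 1 and 3, and no second condition. The labels conflict. Antibody and assay entries name ChIP-seq for B-H2, while a description line in either sample speaks of input control. The peak lists cannot decide between them, and values are given here as ChIP-seq for B-H2. Peaks came from all embryo cells together, so a strong peak in few cells and a weaker one in many cannot be told apart.

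B-H2 is 1 of the paired Bar homeodomain proteins of Drosophila, which are known from the development of the eye, of external sense organs and of neurons. Homeodomain proteins in general bind short sequences with a TAAT core. In ChIP-seq, DNA recovered with a protein is sequenced, and a peak caller marks where reads pile up. The summit is the base where the pile is highest, and the signal is the height value that the authors' caller gave the peak, comparable within a list only. Each replicate and the pool of both had a list of 30000 peaks. The authors' set of peaks passing a threshold on IDR, the irreproducible discovery rate, which compares the ranks of peaks in both replicates, held 4277. Those were the 4277 strongest of the pooled list, with signals of 112 to 3978 and a median of 168. A rank of 1 is the highest signal in a list. Read depth is unknown, since peak lists hold no read counts.

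The strongest summit of each gene lay in an intron. The sequences of 7 of these sites are shown because they are the places the later values refer to. Each is the pooled summit with 50 bases on either side, from the plus strand of the RefSeq copy of the dm6 assembly. Each line is written 5′ to 3′. Capitals mark matches, on either strand, to the words of 6 bases that the next paragraphs describe.
CG11050 (chr2L:6612655-6612755): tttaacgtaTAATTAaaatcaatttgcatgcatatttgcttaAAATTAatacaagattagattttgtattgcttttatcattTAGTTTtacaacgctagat
Tlk (chrX:3742173-3742273): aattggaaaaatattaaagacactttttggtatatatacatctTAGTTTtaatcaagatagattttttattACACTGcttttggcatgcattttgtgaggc
Lk6 (chr3R:11761014-11761114): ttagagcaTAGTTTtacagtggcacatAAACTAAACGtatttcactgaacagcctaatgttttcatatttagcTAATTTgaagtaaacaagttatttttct
CG9663 (chr2L:3302131-3302231): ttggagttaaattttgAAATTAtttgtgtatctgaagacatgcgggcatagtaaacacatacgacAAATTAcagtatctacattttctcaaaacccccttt
CG32772 (chrX:4910330-4910430): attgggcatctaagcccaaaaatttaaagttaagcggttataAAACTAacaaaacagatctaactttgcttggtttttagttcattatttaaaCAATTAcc
norpA (chrX:4324933-4325033): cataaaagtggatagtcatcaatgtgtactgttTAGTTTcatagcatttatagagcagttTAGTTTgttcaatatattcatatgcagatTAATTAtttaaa
for (chr2L:3655768-3655868): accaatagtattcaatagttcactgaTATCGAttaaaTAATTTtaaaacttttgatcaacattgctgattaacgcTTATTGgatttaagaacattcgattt
In the Lk6 window, TAGTTT on the other strand overlaps another word and both form 1 longer run of capitals.

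A search for 12 words, taken from homeodomain sites and from elements of Drosophila promoters, found TAATTT in the most windows. It was found within 50 bp of the strongest summit in 4 of the 8 genes, CG11050, Lk6, CG9663 and for, beside 19.0% of all IDR windows and 15.6% of all pooled windows. TAATTA was in 2 genes, CG11050 and norpA, against 6.94% of IDR windows and 6.20% of pooled windows. TAATTG was in CG32772 (8.65% of IDR windows), TAAACG in Lk6 (5.49%), CAATAA in for (10.6%), TATCGA, which is part of the DNA replication-related element, in for (12.3%), and ACACTG in Tlk (9.73%). In none of the 8 windows were CGATAG (9.73% of IDR windows), GGTCAC (4.63%), GAGAGA (4.28%), CACACA (9.49%) and CAGGTA (1.71%). In sbb none of the 12 was found. TAATTT and TAATTA hold A and T only, and the 8 windows were low in GC. The part of GC content in these counts was not tested.

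TAGTTT was read from the windows afterwards, so its count is a description with no test. It was present in 5 of the 8 strongest windows (CG11050, Tlk, Lk6, CG32772 and norpA), and 2 copies each were in Lk6 and norpA. The nearest copy was 2 bp from the summit in Tlk, 3 bp in CG32772, 10 bp in norpA, 18 bp in Lk6 and 32 bp in CG11050. Over all 36 IDR summits of the 8 genes it was in 10 windows, beside 10.7% of all IDR windows and 8.18% of pooled windows. A match is a run of letters in a window and does not show that a protein is bound there.

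The windows were poor in G and C. GC content was 21.8% in CG11050, 25.7% in norpA and in for, 26.7% in Tlk, 28.7% in Lk6 and in CG32772, and 32.7% in CG9663 and in sbb. The median of the 8 was 27.7%, against 39.6% for the 4269 other IDR summits, whose quartiles were 31.7% and 47.5%. Of those 4269, 29.0% were at or below the highest of the 8 genes. IDR summits of other genes that were as far from their own transcription start sites (TSSs; at least 949 bp) had a median of 39.6%, with 25.9% of 975 at or below that value. Strong peaks in general were poorer in GC. The other 54 IDR peaks of rank 62 or better had a median of 32.2%, and 30 of them (55.6%) were at or below 32.7%. The 28 weaker IDR summits of the 8 genes had a median of 40.6%, with 10 of them (35.7%) at or below 32.7%. Whether GC content has a part in the height of these peaks was not tested.

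**Figure D1:**
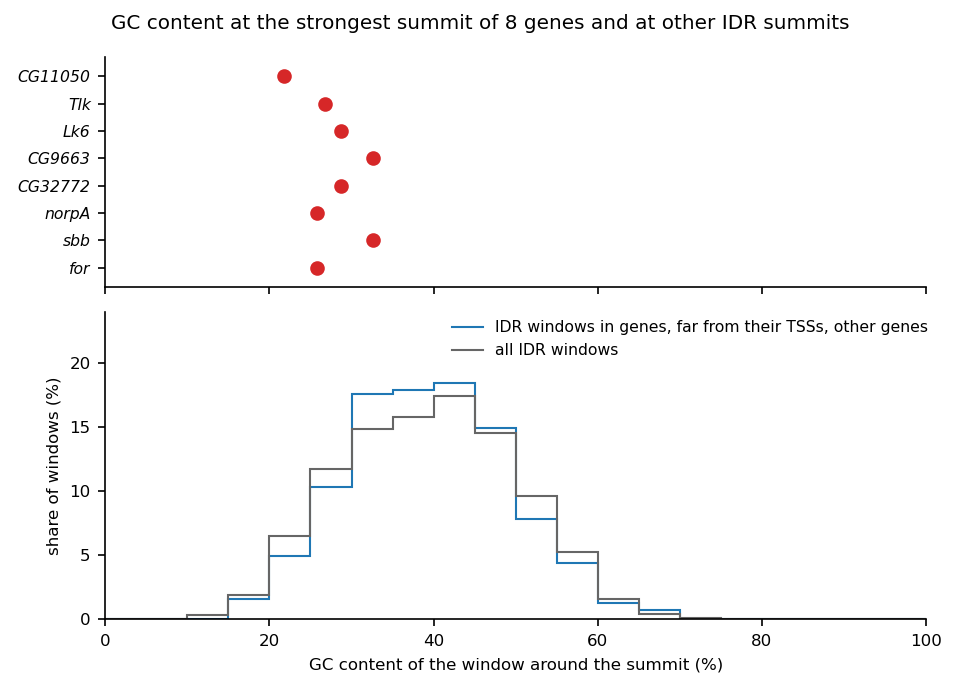
GC content (%) of the bases within 50 bp of the strongest pooled summit of each of the 8 genes (upper panel, 1 point per gene) and the distribution of the same measure over IDR windows (lower panel, share of windows per 5% bin). The 8 points lie between 21.8% and 32.7%, to the left of the middle of both distributions, whose median is 39.6%.

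All 8 genes had an IDR summit in the gene body, as the choice requires, whereas 11.5% of all protein-coding genes did. In and within 5 kb of the 8 genes, a total length of 340.4 kb, there were 36 IDR summits, 30 of them in gene bodies and 6 in flanks. The pooled list had 195 summits there, the list of replicate 1 had 171 and that of replicate 3 had 197. CG11050, Tlk, Lk6, CG9663, CG32772, norpA and for had a single summit well above the other pooled summits in the gene or within 5 kb. These ratios use the signal that chose the genes and are a description, and no ratio for other genes is given here. In CG11050, Lk6, CG32772 and norpA the next summit lay outside the gene body. The strongest was 24.5 times the next in CG9663, 16.9 times in CG11050, 10.2 times in CG32772, 9.42 times in Lk6, 7.39 times in norpA, 4.33 times in Tlk and 2.95 times in for. In sbb the first and second summit differed by a ratio of only 1.13.

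**Figure D2:**
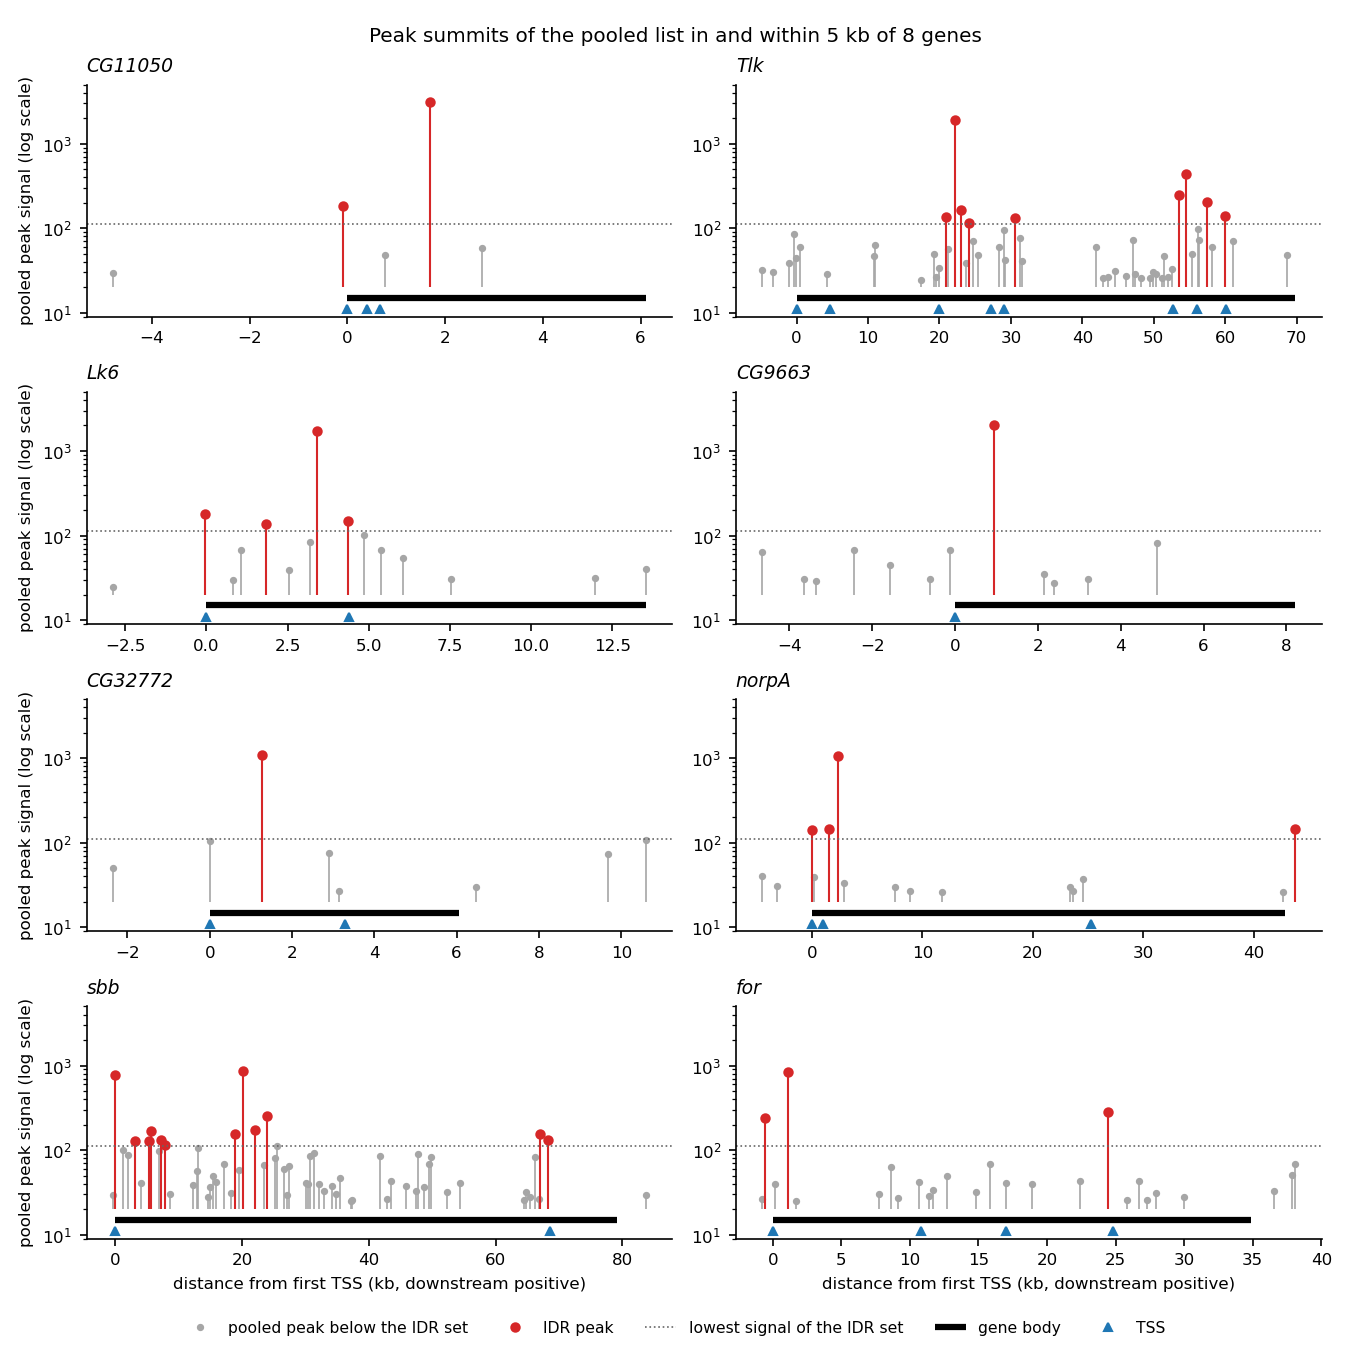
Pooled peak summits in and within 5 kb of the 8 genes, by distance from the first TSS (kb, downstream positive, horizontal axis) and pooled signal (log scale, vertical axis). Red points are IDR peaks, grey points weaker pooled peaks, black bars the gene bodies and blue triangles the TSSs. CG9663 and CG32772 have 1 red point each, while Tlk has 9 and sbb 12.

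Of the 8 strongest summits, none was within 900 bp of a TSS of its own gene. They lay 949 bp (CG9663), 985 bp (Lk6), 1018 bp (CG11050), 1135 bp (for), 1278 bp (CG32772), 1374 bp (norpA), 2326 bp (Tlk) and 20.1 kb (sbb) from the nearest one. The one in Lk6 was upstream of that TSS and the other 7 were downstream. Only those of Lk6 and CG9663 count as promoter peaks under a window of 1 kb, and both are close to its edge. With 2 kb, 6 of the 8 would count. Such distances are not rare. Of the 2317 IDR summits inside protein-coding genes, 388 (16.7%) lay 949 to 2326 bp from the nearest TSS of their gene, the range of all 8 but sbb. Pal1 (1878, at -176 bp) and CG11309 (1607, at 91 bp) had strong summits in the gene body nearer to a TSS and are not among the 8. The distances may thus follow from the choice, and no result is read from them. The widths of the 8 peaks were 293 to 608 bp with a median of 400.5 bp, beside a median of 384 bp for all IDR peaks. Many weaker IDR peaks of the 8 genes were exactly 384 bp wide. That value may therefore be a set width of the caller, and no difference in width is read from it.

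Among the genes with a known enzyme or regulator as product, Tlk and Lk6 encode protein kinases. Tlk, the Tousled-like kinase, phosphorylates the histone chaperone Asf1 and acts in chromatin assembly. It is a gene of 69.8 kb on the plus strand (FBgn0283657, X, 3720007 to 3789770), with 14 transcripts from 8 TSSs. Its strongest peak (X, 3742029 to 3742436) had a pooled signal of 1907 at rank 6. It had a signal of 836 at rank 8 in replicate 1 and 1090 at rank 6 in replicate 3. The summit lay 2326 bp downstream of the third TSS, 22.2 kb from the first and 4.94 kb upstream of the fourth. It is in intron 1 or 2 of 8 transcripts, in introns of 41.4 to 60.0 kb, and upstream of the other 6 transcripts.

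Of the other 8 IDR summits of Tlk, 7 formed 2 neighbourhoods. Around the strongest one, between 21.0 and 24.2 kb from the first TSS, were summits with pooled signals of 137, 164 and 114, at ranks 3057, 2224 and 4098. A second neighbourhood, 53.5 to 60.0 kb from the first TSS, held signals of 440 (rank 295), 250 (rank 988), 205 (rank 1443) and 140 (rank 2944). Its leading summit was 1602 bp upstream of the seventh TSS, at rank 365 in replicate 1 and rank 266 in replicate 3. The summit of 205 lay inside the microRNA gene mir-4962, 1376 bp downstream of the seventh TSS. A lone summit of 132 at 30.6 kb was 1574 bp downstream of the fifth TSS. Only the sixth and eighth of the 8 TSSs had an IDR summit within 1 kb, with signals of 250 and 140. The first TSS, which serves 6 of the transcripts, had at most 85.8, the fifth 94.3 and the seventh 97.9, all below the IDR set. The fourth TSS had no pooled summit within 1 kb. All 9 IDR summits of Tlk were inside the gene, and none was at the start shared by the most annotated transcripts.

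Lk6 is the fly counterpart of the Mnk kinases, which are activated by ERK and phosphorylate the translation initiation factor eIF4E. The gene covers 13.5 kb on the minus strand (FBgn0017581, 3R, 11750931 to 11764457) and has 2 transcripts with a TSS each. The peak in question (3R, 11760878 to 11761432) had a pooled signal of 1712 at rank 9. Replicate 1 gave it a signal of 837 at rank 7, and replicate 3 a signal of 854 at rank 14. Its summit lay 3393 bp downstream of the first TSS, inside intron 1 (6991 bp) of the long transcript. For the short transcript the same summit is 985 bp upstream of the start. Both TSSs of Lk6 also had a summit of their own, at -35 bp with a signal of 182 (rank 1865) and at -10 bp with a signal of 149 (rank 2649). Another summit, 1822 bp downstream of the first TSS, had a signal of 138 (rank 3031). That last one was uneven between replicates, with rank 1851 in replicate 1 and rank 6819 in replicate 3. The intragenic peak of Lk6 was thus accompanied by far weaker peaks at each of its starts.

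The gene for encodes a cyclic GMP-dependent protein kinase and is known for its part in larval foraging. It covers 34.9 kb on the minus strand (FBgn0000721, 2L, 3622074 to 3656953), with 13 transcripts from 4 TSSs. Its strongest peak (2L, 3655673 to 3655965) had a pooled signal of 829 at rank 62, the lowest of the 8 genes. Signals were 371 at rank 66 in replicate 1 and 465 at rank 64 in replicate 3. The summit was 1135 bp downstream of the first TSS, in intron 1 (1122 or 1136 bp) of 3 transcripts. Upstream of the other 10 transcripts it lies between 9.68 and 23.7 kb from their starts. A second summit of 281 (rank 767) lay 327 bp upstream of the fourth TSS, which starts 7 transcripts. Another of 239 (rank 1080) lay 558 bp upstream of the first TSS. The second TSS had no IDR summit within 1 kb and at most 41.9 in the pooled list. The same held for the third TSS, with at most 41.2. The IDR summits of for were thus near its first and last starts and not at the internal pair.

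norpA encodes the phospholipase C of the eye, which couples activated rhodopsin to the opening of the light-sensitive channels. The gene is on the plus strand (FBgn0262738, X, 4322626 to 4365408), 42.8 kb long, with 6 transcripts from 3 TSSs. Its strongest peak (X, 4324804 to 4325146) had a pooled signal of 1068 at rank 37. Replicate 1 had a signal of 450 at rank 37, and replicate 3 had 622 at rank 31. From the first TSS the summit was 2357 bp away and from the second 1374 bp, within intron 1 of 4 transcripts. A weak summit stood at each of those TSSs, of 143 (rank 2884) at -26 bp from the first and of 144 (rank 2829) at 571 bp from the second. Another IDR summit, of 145 (rank 2813), lay beyond the 3′ end, 83 bp upstream of the TSS of CG3626. The third TSS of norpA, 25.3 kb into the gene, had at most 37.4. Apart from the one near CG3626, the IDR summits of norpA lay between 26 bp upstream and 2357 bp downstream of its first TSS.

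sbb, also called scribbler or brakeless, encodes a nuclear protein that works as a transcriptional corepressor. It is the longest of the 8 genes, 79.1 kb on the minus strand (FBgn0285917, 2R, 18278198 to 18357296), with 7 transcripts from 2 TSSs. Its intragenic peak (2R, 18336931 to 18337323) had a pooled signal of 866 at rank 57. This was the least even of the 8 between replicates, with a signal of 266 at rank 149 in replicate 1 and 602 at rank 37 in replicate 3. The summit lies in intron 1 or 2 of 5 transcripts, in introns of 49.4 or 65.6 kb, 18.3 kb from the nearest exon of sbb. A promoter peak at -147 bp from the first TSS had a pooled signal of 765 (rank 79). It had a signal of 364 at rank 70 in replicate 1 and 400 at rank 94 in replicate 3. In replicate 1 the promoter peak was therefore the stronger of the pair, and in replicate 3 the intronic peak was. The order of these 2 peaks was thus not the same in the replicates. The promoter summit lies in the flank, outside the gene body. Only in the pool and in replicate 3 did the intronic peak exceed it.

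The other 10 IDR summits of sbb had pooled signals between 114 and 251. The strongest of these, 251 at rank 976, was 23.9 kb from the first TSS and had ranks of 1020 in replicate 1 and 973 in replicate 3. Summits of 171 and 157 lay at 22.1 and 18.8 kb, so 4 IDR summits fell between 18.8 and 23.9 kb from the first TSS. Another 5, of 114 to 170, were between 3.07 and 7.86 kb. The summits at 5.37 and 5.58 kb matched 1 and the same peak of replicate 1 (rank 1823), so they are not separate in that replicate. The remaining 2, of 155 and 132, lay inside CG14502, a gene within sbb, at 1039 and -122 bp from a TSS of CG14502. The summit of 132 was also 337 bp upstream of the second TSS of sbb, and cannot be assigned to 1 of the genes.

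CG9663 is a member of the ABCG family of membrane transporters, to which the eye colour gene w also belongs. It covers 8205 bp on the minus strand (FBgn0031516, 2L, 3294926 to 3303130) and has 1 transcript. Its peak (2L, 3301916 to 3302374) had a pooled signal of 2006 at rank 5. The signal was 842 at rank 6 in replicate 1 and 1155 at rank 5 in replicate 3. With its summit 949 bp downstream of the TSS, it lay in intron 1, which is 1292 bp long. The TSS had no IDR summit of its own. The nearest pooled summit, 132 bp upstream of it, had a signal of 66.6 at rank 9057. The next strongest summit near the gene was 81.8 at rank 6839. CG9663 thus had 1 very strong peak, with nothing else of the IDR set in the gene or within 5 kb.

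CG32772 had the same arrangement. No role is given here for this gene or for CG11050, whose products RefSeq lists as uncharacterized proteins. CG32772 covers 6060 bp on the plus strand (FBgn0052772, X, 4909102 to 4915161), with 4 transcripts from 2 TSSs. Its single IDR peak (X, 4910205 to 4910550) had a pooled signal of 1103 at rank 31. Replicate 1 had a signal of 524 at rank 26, and replicate 3 had 588 at rank 39. The summit was 1278 bp downstream of the first TSS, in an intron of 1054 bp. At the first TSS the pooled list had a summit of 104 at 17 bp (rank 4767), just below the lowest IDR signal of 112, and at the second TSS at most 75.5. None of its TSSs had an IDR summit within 1 kb.

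CG11050 had the strongest IDR peak inside any protein-coding gene. The gene covers 6107 bp on the plus strand (FBgn0031836, 2L, 6611011 to 6617117) and has 3 transcripts, each with its own TSS, within 676 bp of each other. Its peak (2L, 6612348 to 6612955) had a pooled signal of 3097 and held rank 3 in all lists, with 1554 in replicate 1 and 1552 in replicate 3. The summit lay 1694 bp from the first TSS and 1018 bp from the third, in intron 2 of all 3 transcripts. That intron is 140 bp long, the shortest around any of the 8 summits, and the summit was 65 bp from the nearest exon edge. The peak itself, at 608 bp, was the widest of the 8 and reached over the neighbouring exons. A second IDR summit of 183 (rank 1838) lay 97 bp upstream of the first TSS and is within 1 kb of all 3. In replicate 1 it had rank 1579 and in replicate 3 rank 2029.

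Taking the 25 TSSs of the 8 genes one by one, 14 had an IDR summit within 1 kb, beside 26.8% of the 19630 TSSs of protein-coding genes, each counted once per gene. These 14 are not separate cases. The 3 of CG11050 share 1 summit, and those of CG9663 and of the second TSS in Lk6 include the intragenic peaks that chose the genes. With a window of 500 bp, 9 of 25 had one. The share of all TSSs at 500 bp is not given here, and the 26.8% does not apply to that window. By gene, all TSSs of CG11050, Lk6, CG9663 and sbb had an IDR summit within 1 kb, as did 2 of 3 in norpA, 2 of 4 in for, 2 of 8 in Tlk and 0 of 2 in CG32772. A summit of the wider pooled list was within 1 kb of 24 of the 25, beside 60.4% of all 19630 TSSs.

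**Figure D3:**
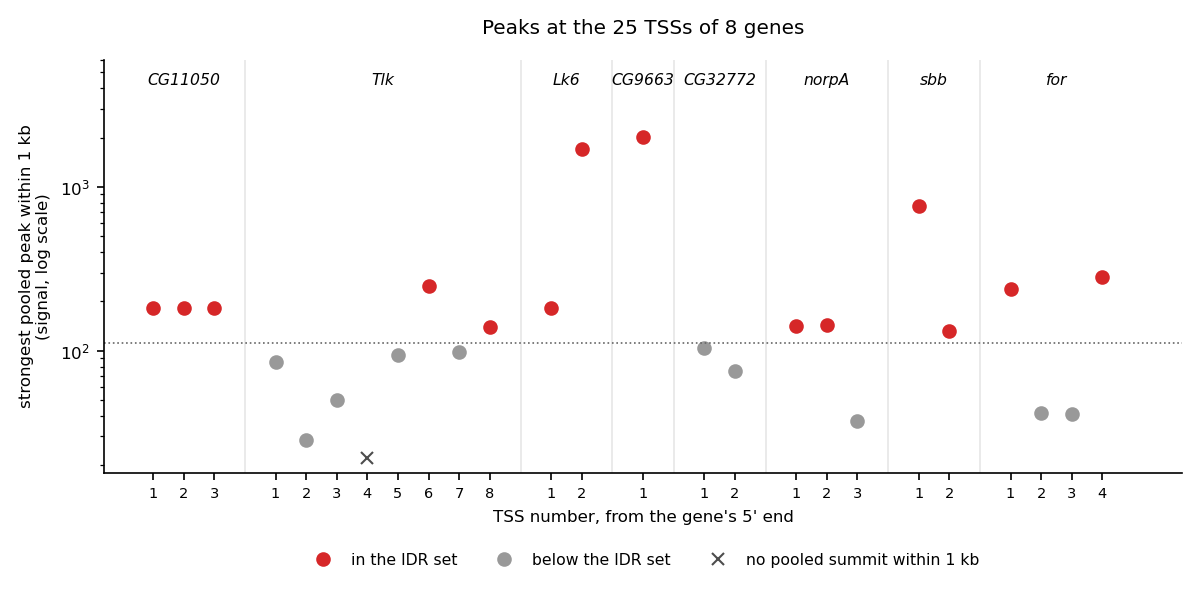
Strongest pooled peak (signal, log scale) with its summit within 1 kb of each of the 25 TSSs, numbered along each gene from its 5′ end. Red points belong to the IDR set, grey points do not, the dotted line is the lowest IDR signal (112) and the cross is the fourth TSS of Tlk, with no pooled summit. The high points at Lk6 and CG9663 are their intragenic peaks, 985 and 949 bp from the TSS, while the other TSSs lie between 28.4 and 765.

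The density of pooled summits, those of the IDR set included, varied between the genes. It was 6.96 per 10 kb in sbb, 6.59 in CG9663, 6.52 in Tlk, 6.38 in Lk6, 5.79 in for, 4.98 in CG32772, 3.10 in CG11050 and 2.84 in norpA, each counted over the gene with its flanks. The genome average was 2.18 per 10 kb, so all 8 were above it, although each count includes the summit that chose the gene. That average is over the whole assembly of 137.5 Mb, genes or not. The density over other genes with their flanks is not given here, so no excess over genes in general is read from it. With overlapping peaks merged, the 195 pooled summits of the 8 genes became 164. For IDR summits the values ran from 0.549 (CG9663) to 1.70 (Lk6) per 10 kb, against 0.311 over the genome. These counts also include the summit that chose the gene. In CG9663 and CG32772 (0.623) it is the only IDR summit, so their values follow from the choice. Counted below the IDR set, there were 50 summits in sbb, 43 in Tlk, 23 in for, 11 each in Lk6, CG9663 and norpA, 7 in CG32772 and 3 in CG11050. The strongest weak summits were 111 in sbb and 108 in CG32772, the second of which was 827 bp from the TSS of Hgsnat.

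All 8 strongest summits had a counterpart among the 4277 strongest peaks of both replicates, with at least 1 bp of overlap. Of all 36 IDR peaks of the 8 genes, 27 did, next to 71.3% of all 4277 IDR peaks, which is close to the share among these genes. The pooled list contains the reads of both replicates, so part of this match follows from the choice. By gene, the counts were 2 of 2 in CG11050, 5 of 9 in Tlk, 3 of 4 in Lk6, 1 of 1 in CG9663 and in CG32772, 4 of 4 in norpA, 8 of 12 in sbb and 3 of 3 in for. The larger of the replicate ranks was a median of 1.5 times the smaller over the 36 peaks and 1.56 times over the 4227 IDR peaks with a counterpart in both full lists. It was more than 2 times as large in 10 of the 36 (27.8%) and in 30.7% of the 4227. The largest ratio among the 36, 4.03, was that of the intronic peak of sbb.

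Summit positions of the strongest peaks hardly moved between lists. Against the pooled summit they were shifted by a median of 7 bp and at most 22 bp in replicate 1, and by a median of 1.5 bp and at most 5 bp in replicate 3. The shift of 22 bp in replicate 1 belonged to CG11050 and one of 21 bp to CG32772. Over all 36 IDR peaks the shift was within 50 bp for 29 in replicate 1 and for 32 in replicate 3. Shifts over 100 bp in replicate 1 were in sbb, at its peaks of 155, 132 and 127, and in replicate 3 in the Tlk peak of 114 and the sbb peak of 171. The shift from the pooled position was thus smaller in replicate 3 at the 8 strongest summits, but the number of reads each replicate adds to the pool is not known.

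**Figure D4:**
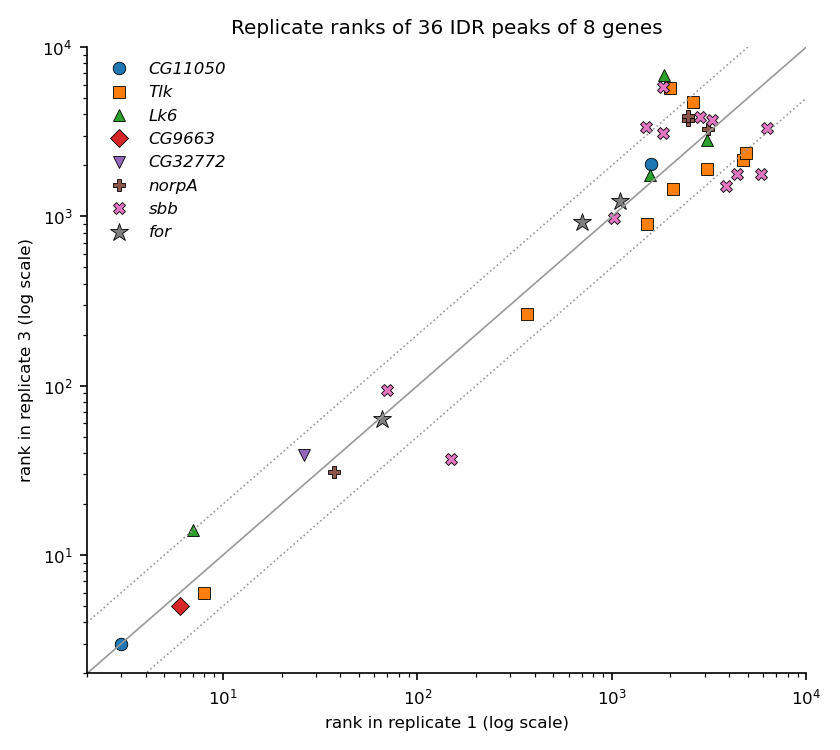
Rank in replicate 1 (horizontal, log scale) against rank in replicate 3 (vertical, log scale) of the 36 IDR peaks in and near the 8 genes, 1 symbol per gene. The solid line marks equal ranks and the dotted lines a ratio of 2. Of the 8 strongest peaks, at lower left, 6 lie between the dotted lines, the Lk6 peak (ranks 7 and 14) lies on one of them, and the sbb peak (rank 149 in replicate 1 and rank 37 in replicate 3) lies outside.

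The 672 genes with an IDR summit in the body at least 949 bp from every own TSS were ordered by pooled signal. The cutoff of 949 bp is the smallest distance among the 8 genes, so all 8 pass it by construction. The order uses the signal that chose them, so their places are a description and not a result. CG11050, CG9663, Tlk and Lk6 held the first 4 places. CG32772 was at place 8, norpA at 9, sbb at 14 and for at 16. The 8 other genes above for were led by Trl, which encodes GAGA factor (signal 1465), CHES-1-like, a forkhead gene (1367), and ush, which encodes a zinc-finger cofactor of GATA proteins (1120). Distance was taken to a gene's own TSSs only. Some summits in this order, as those of pooled ranks 47 and 53, thus lie within 1 kb of another gene's TSS. The neighbours of for (829) in that order were osa, which encodes a subunit of the Brahma chromatin-remodelling complex, above it at 843, and the kinase gene Csk, below it at 816. The list of 8 genes is hence a selection from the strongest intragenic peaks and has no gap in signal at its lower end. When any summit in the gene body was counted, whatever its distance from a TSS, Lk6 came at place 5 and for at place 33 of 1608 genes.

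Other genes of the same pathways were looked at for whether strong peaks go beyond these 8. Over 6 lists, 29 of 53 genes other than the 8 had an IDR summit in the body or within 5 kb, beside 49.4% of all protein-coding genes, and 21 had one within 1 kb of a TSS, beside 26.9% of all protein-coding genes. In the body alone the count was 9 of 53, next to 11.5%. The count within 5 kb is near the share of all genes. The lists were chosen by hand and not tested, and no result for the pathways is read from these counts.

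Of the phototransduction genes, the partners of norpA, 8 of 18 had an IDR summit in the body or within 5 kb. The share of all protein-coding genes was 49.4%, and the same window and share go with the counts of the lists below. The strongest was 252 (rank 972) at -163 bp from the TSS of rdgB, a phosphatidylinositol transfer protein. The gene rdgC, a rhodopsin phosphatase, had 203 (rank 1464) at -377 bp. The summits near inaD (249) and Gbeta76C (201) had their nearest TSS at RpL23 and CG8765. Both of the other phospholipase C genes had one, of 165 at -227 bp in Plc21C and of 350 near sl, where the nearest TSS was that of PIG-Q.

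The ABCG transporter genes other than CG9663 had an IDR summit in the body or within 5 kb in 7 of 13 cases, beside 49.4% of all protein-coding genes. In the body alone, 3 of the 13 had one, beside 11.5% of all protein-coding genes. E23, an ecdysone-induced transporter, had 484 (rank 234) at -214 bp. A summit of 1424 (rank 14) was within 5 kb of CG17646, but its nearest TSS was that of the enolase gene Eno, 199 bp away. The strongest IDR summits in or within 5 kb of CG5853 (270) and CG3164 (224) were likewise at the TSSs of CG4619 and Gs1. Cyclic GMP genes other than for had one in the body or within 5 kb in 6 of 10 cases, beside the same 49.4%. The strongest were at the phosphodiesterase genes Pde6 (388, at -275 bp) and Pde1c (268, in the gene body, nearest TSS of CycY). They were followed by the guanylyl cyclase genes Gyc76C (217, nearest TSS of SREBP) and Gycbeta100B (180, at -161 bp).

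The list around Lk6 holds genes of the ERK cascade, stress kinase genes and eIF4E1. Of its 9 genes other than Lk6, 6 had an IDR summit in the body or within 5 kb, beside 49.4% of all protein-coding genes. The stress kinase gene p38a had 511 (rank 200) at -48 bp. The summits of 521 near Raf, 307 near Ras85D and 200 near eIF4E1 had their nearest TSS at CG2865, CG8176 and CG4080. The chaperone gene asf1, whose product is the substrate of Tlk, had none. Of the summits named for the pathway genes, the one at Eno was the only one above the weakest of the 8 intragenic peaks, 829.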

How the data were processed

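The authors deposited 4 peak lists of ChIP-seq on 2 replicates of whole B-H2-GFP embryos: 1 per replicate, 1 on the pooled alignments and 1 IDR set, in dm6 coordinates per the labels. The same control alignment served all lists, per the deposited file descriptions. Peak caller and IDR threshold are not given in the labels or file descriptions. Chromatin was sonicated to 200 to 800 bp per the labels, which limits how finely a summit is placed. The hours come from the source label, since the age label is no readable time. The deposited signal value of each peak was used as it is. The deposited −log10 q-value saturates at 4.09 in the pooled list and ranks nothing in the IDR set. Columns of score and p-value hold placeholders.

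Summits are the peak start plus the summit offset. Gene models came from Ensembl release 115 (BDGP6.54), on the 7 main arms, and sequence from the RefSeq dm6 assembly. Peaks were matched between lists by 1 bp of overlap, the strongest match being kept. Words of 6 bases were looked for on either strand, up to 50 bp from the summit. With 1 group and members chosen on pooled signal, all values are descriptions, with no test and no interval, and nothing measures spread between embryos. The counting was tested on simulated data. The 8 genes, the gene lists and the words were chosen with earlier results of these data known. The genes named are the 8, the genes at the nearest TSS of their IDR summits, their neighbours in the order of intragenic signal, and up to 4 genes per pathway list. One listed symbol, CdsA, matched no current gene. Alternatives varied the flank, the TSS and word windows, the matching rule, the size of the IDR set and the replicate used. Python 3.11.15, numpy 2.4.6, pandas 2.3.3 and matplotlib 3.10.9 were used.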

Additional observations from a re-analysis of the deposited data

How the results depend on the processing

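Of the recomputed values, 35 stayed close to the reported ones and 10 moved. The 36 IDR summits in and near the 8 genes became 19 among the 2138 strongest of the IDR set, where a smaller set gives a smaller count. With each replicate taken alone, 38 summits among its own strongest peaks were counted, which are not an IDR set. The 14 TSSs with an IDR summit within 1 kb became 9 within 500 bp. The strongest summit was a promoter summit in 2 genes within 1 kb, in 0 within 500 bp and in 6 within 2 kb. A word of the planned 12 was found at 7 of the strongest summits within 50 bp and at 4 within 25 bp. Of the pathway genes, 29 had an IDR summit within 5 kb and 9 in the gene body. The lowest rank of a strongest peak, 62 in the pool, was 64 to 149 when a single replicate was used, and the rank of 149 in replicate 1 was that of the intronic peak of sbb. Without replicate 3, sbb is thus led by its promoter peak. The window of 25 or 100 bp for TAGTTT was chosen after seeing the data, and gave 4 and 5 genes beside 5. Read depth, which is unknown, limits how far ranks of weak peaks can be compared. No paired analysis was possible because the series has a single group.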
